A study of Mus musculus with 61 samples.

Results

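Secretoglobin genes, among them those of the androgen-binding proteins, were followed through the lacrimal and salivary glands of NOD mice. Members were taken from the array annotation by name. They are the probe sets whose every gene symbol starts with Scgb, Abpa or Abpb, and 7 of the 45101 probe sets met this rule. Of these, 6 named a single gene, Scgb1b27, Scgb2b27, Scgb1b2, Scgb3a1, Scgb1a1 and Scgb3a2. The remaining probe set carried the names Scgb2b7 and Scgb2b20 together, so that the 7 probe sets covered 8 symbols. Nothing in the rule used a measured value.

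The mice were male and of the NOD strain, in which lymphocytes infiltrate the lacrimal glands, and no group from another strain or sex was on the arrays. Untreated mice were sampled at week 8, 12, 14 and 16. Other mice were given from week 8 on either LTBR-Ig, the mouse lymphotoxin-beta receptor fused to a mouse IgG1 Fc (mLTBR-mIgG1), or MOPC-21, a control mouse IgG1 antibody, and their glands were taken at week 12 or at week 16, that is after 4 or 8 weeks of dosing. Each of the 16 groups of gland, week and treatment held 4 arrays, apart from untreated lacrimal glands at week 12 (n = 3) and LTBR-Ig salivary glands at week 12 (n = 2). A lacrimal sample joined both extra-orbital glands of a mouse, and the methods describe these as biological replicates. For salivary samples the methods describe combined submandibular, salivary and parotid glands from which the cervical lymph nodes had been removed, while the sample titles read SUB. A salivary array can thus average over glands, in shares that were not measured. The mean log2 signal of 4 parotid gland products ranged from 3.94 to 11.18 over the salivary arrays.

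Secretoglobins are small secreted proteins that pair into dimers. In mice, androgen-binding proteins are dimers of an alpha subunit, encoded by an Scgb1b gene, and a beta or gamma subunit, encoded by an Scgb2b gene, joined by disulfide bonds. They are secreted into saliva and tears and are known for their part in recognition between mice. Scgb1b27 and Scgb2b27 encode an alpha and a beta subunit of salivary androgen-binding protein, and Scgb1b2 is also known as a lacrimal gland protein. Scgb1a1, Scgb3a1 and Scgb3a2 belong to other branches of the family that are known from airway epithelium.

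In RefSeq (GRCm38.p6) the Scgb1b genes have 19 entries and the Scgb2b genes 29, pseudogenes included, all on chromosome 7. Scgb2b27 and Scgb1b27 are immediate neighbours there and are read from opposite strands. Scgb2b7 lies beside Scgb1b7 and Scgb2b20 beside Scgb1b20. The copies resemble each other closely, and it was not checked which other copies the probes of a probe set can bind.

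The sequences before the genes are shown because each pair of subunit genes had its higher signal in a different gland. These were the salivary glands for Scgb1b27 and Scgb2b27 and the lacrimal glands for Scgb1b2 and Scgb2b7/Scgb2b20. Each run is 220 bases, read 5′ to 3′ along the gene, and was cut from the RefSeq promoter window (250 bases before to 50 after the annotated start, GRCm38.p6) so that it ends with its TTATAA. Capitals mark TTATAA, a core-promoter hexamer of the TATA kind that reads the same on both strands, and AGAACA in either orientation (TGTTCT on the printed strand), the hexamer core of androgen and glucocorticoid receptor sites. Both hexamers were chosen with the sequences in view. The runs lie at chr7:34021308-34021527 (plus strand), chr7:31291841-31292060 (minus strand), chr7:34013910-34014129 (minus strand) and chr7:33366343-33366562 (minus strand).
Scgb1b27: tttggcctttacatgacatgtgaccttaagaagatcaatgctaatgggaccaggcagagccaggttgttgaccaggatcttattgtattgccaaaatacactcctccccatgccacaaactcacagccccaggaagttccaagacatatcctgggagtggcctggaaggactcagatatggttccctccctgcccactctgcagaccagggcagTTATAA
Scgb1b2: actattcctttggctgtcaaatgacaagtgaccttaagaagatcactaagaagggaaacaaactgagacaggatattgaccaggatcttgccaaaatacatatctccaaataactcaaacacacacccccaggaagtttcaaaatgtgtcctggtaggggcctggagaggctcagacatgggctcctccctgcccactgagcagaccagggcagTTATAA
Scgb2b27: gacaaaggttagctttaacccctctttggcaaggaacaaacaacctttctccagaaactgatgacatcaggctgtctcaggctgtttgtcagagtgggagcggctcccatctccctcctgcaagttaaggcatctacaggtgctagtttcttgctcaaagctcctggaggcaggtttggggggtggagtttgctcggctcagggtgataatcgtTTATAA
Scgb2b20: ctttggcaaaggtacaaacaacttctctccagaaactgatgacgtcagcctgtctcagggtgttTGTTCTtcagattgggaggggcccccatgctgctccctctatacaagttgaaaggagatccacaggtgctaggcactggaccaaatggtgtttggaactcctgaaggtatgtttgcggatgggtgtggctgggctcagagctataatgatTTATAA
The run of Scgb2b7, at chr7:31705781-31706000 (minus strand), was identical to that of Scgb2b20 at 217 of 220 positions and is not printed.

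Similarity followed the subunit and not the gland. Over the printed runs, aligned end to end, the alpha genes Scgb1b27 and Scgb1b2 were identical in 74.2% of 229 columns, and the beta-type genes Scgb2b27 and Scgb2b20 in 66.9% of 245. Between an alpha and a beta-type gene the identity was 51% to 53%, in alignments that force the whole runs together. No unrelated pair was aligned as a baseline. Over the full windows, the best matching stretch of an alpha with a beta-type gene spanned only 9 to 20 columns. It spanned 237 for Scgb1b27 with Scgb1b2 and 246 for Scgb2b27 with Scgb2b20. TTATAA lay before the annotated start of Scgb1b2, Scgb2b7 and Scgb2b20 and after that of Scgb1b27 and Scgb2b27. It was found in 5.79% of all 32851 promoter windows of this length, in 5 of the 9 windows of Scgb1b genes in the table and in 14 of the 20 of Scgb2b genes. The receptor hexamer was in the windows of Scgb2b7 and Scgb2b20, not in those of Scgb1b27, Scgb2b27 and Scgb1b2. It was in 16 of the 20 Scgb2b windows, 3 of the 9 Scgb1b windows and 19% of all windows, so that Scgb2b7 and Scgb2b20 share it with most Scgb2b genes. A match is a string of letters and not a measured site.

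Expression values are log2 GCRMA signals. A value of 4 was taken as the floor of detection, and 37.3% to 41.4% of the probe sets on an array lay above it. A probe set was tested with limma where 2 or more arrays of some group exceeded this floor, and a difference was called at a fold of 2 or more with a Benjamini-Hochberg adjusted p under 0.05. Of the 7 members, 5 were tested in lacrimal glands and 4 in salivary glands. Where the arrays of a group are said to lie apart from those of another, the share of all probe sets that do so was not counted. The gland labels were checked with Lcn11, a lipocalin of the lacrimal gland, which lay between 14.89 and 15.76 in all 31 lacrimal arrays and at 3.54 or less in 29 of 30 salivary arrays. The exception was salivary untreated week 8 replicate 1, with an Lcn11 value of 13.34. Mup5, a major urinary protein and the other lacrimal product of the list with a probe set, did not mark the gland here. In untreated mice its salivary values exceeded its lacrimal values, by a log2 difference of 2.42 at week 8 and 3.05 at week 16 (adjusted p = 0.00495 and 0.00043 in limma, n = 4 in each group). Among lacrimal arrays, 8 carried Amy1, the salivary amylase of the parotid gland, above 8, namely LTBR-Ig replicates 1 and 2, MOPC-21 replicate 1 and untreated replicate 2 at week 12, and LTBR-Ig replicates 3 and 4 and untreated replicates 1 and 2 at week 16. Differences of the secretoglobin members that these arrays moved are given with and without them. The differences of genes outside the family were not recomputed without them.

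The salivary and lacrimal glands differed in which pair of androgen-binding protein transcripts was near the top of the scale. The glands were not mirror images. Scgb1b27 and Scgb2b27 were above the floor on all 31 lacrimal arrays, whereas Scgb1b2 and Scgb2b7/Scgb2b20 were above it on 11 of 30 salivary arrays. Scgb1b27 ranged from 15.43 to 15.87 over the 30 salivary arrays and from 8.10 to 15.08 over the 31 lacrimal arrays. Scgb2b27 ranged from 15.28 to 15.79 in salivary glands and from 4.22 to 13.81 in lacrimal glands. No lacrimal array reached the lowest salivary array in either. For the other pair the order was turned. Scgb1b2 ranged from 15.87 to 16.15 in lacrimal glands and from 2.68 to 15.38 in salivary glands, and Scgb2b7/Scgb2b20 ranged from 15.89 to 16.07 and from 2.65 to 15.33. The highest signal on an array was 15.79 to 16.38, so each pair lay near the upper end of the scale in its own gland, where the arrays have little room to show a rise.

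**Figure D1:**
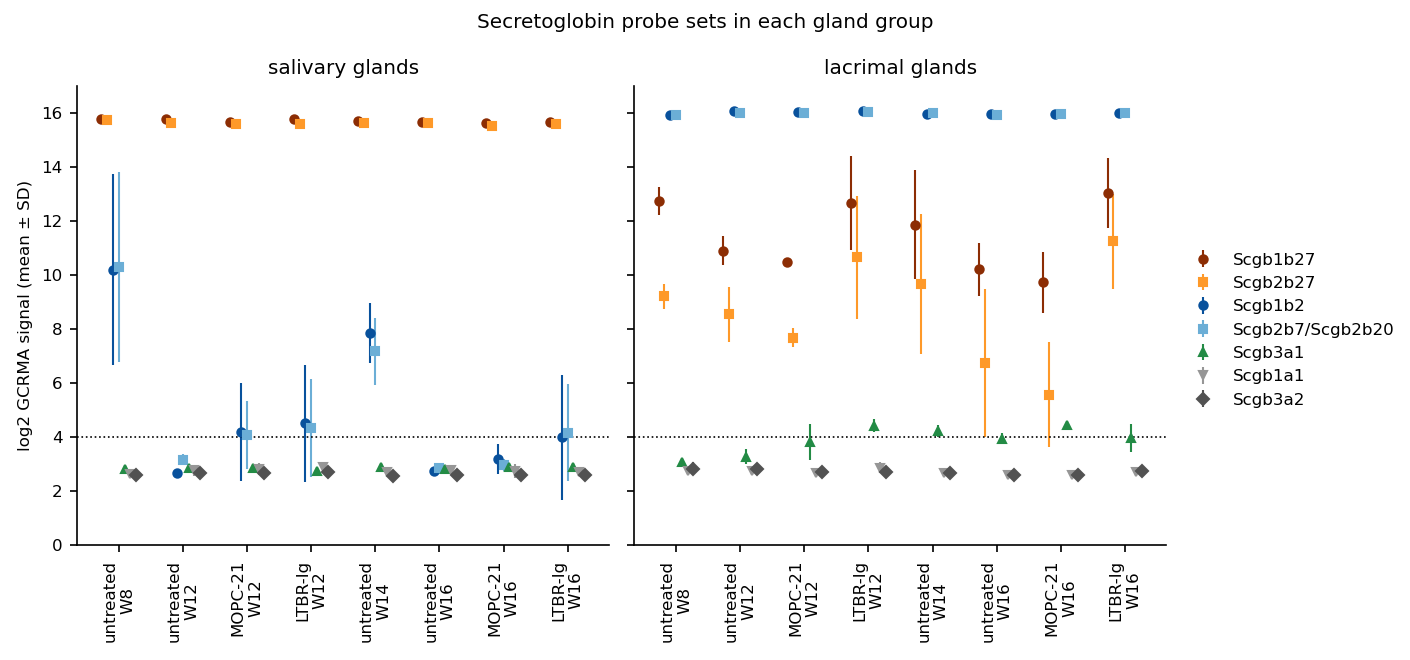
Mean log2 GCRMA signal of the 7 secretoglobin probe sets, with SD bars, in the 8 groups of salivary (left) and lacrimal glands (right), where W is the week. The dotted line is the floor of 4. Scgb1b27 and Scgb2b27 were at 15.28 or more in all salivary arrays and Scgb1b2 and Scgb2b7/Scgb2b20 at 15.87 or more in all lacrimal arrays, while Scgb1a1 and Scgb3a2 stayed below the floor.

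In untreated mice all 4 probe sets differed between the glands at week 8 and at week 16. At week 8, Scgb1b27 was 3.04 ± 0.59 (log2 difference ± SE, n = 4 arrays in each group) higher in salivary than in lacrimal glands, with an adjusted p of 2.03e-05 in limma, and Scgb2b27 was 6.53 ± 0.91 higher, with an adjusted p of 2.83e-08. Scgb1b2 was lower in salivary glands by -5.71 ± 0.86 and Scgb2b7/Scgb2b20 by -5.61 ± 0.78. Without salivary replicate 1, the array that carried Lcn11, and the lacrimal arrays high in Amy1, none of which is of week 8, these differences were -7.44 and -7.29. These 4 were called and Scgb3a1 was not, where 18.8% of all 21626 probe sets tested were called. At week 16 the log2 differences were 5.46 ± 0.59 for Scgb1b27, 8.88 ± 0.91 for Scgb2b27, -13.22 ± 0.86 for Scgb1b2 and -13.09 ± 0.78 for Scgb2b7/Scgb2b20. The last 2 set salivary means below the floor (2.73 and 2.85) against lacrimal means at the top of the scale, so they tell that the glands differ and not by how much. Without the arrays high in Amy1 the week 16 differences were 6.16 for Scgb1b27 and 11.23 for Scgb2b27. All 5 members tested were called at week 16, against 23.4% of all probe sets, with Scgb3a1 lower in salivary glands (-1.11 ± 0.19). Whether the gland difference itself changed between week 8 and week 16 was not tested. In whole glands, fewer cells of a type and less RNA per cell cannot be told apart.

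In the lacrimal glands of untreated mice, the alpha subunit gene Scgb1b27 fell with age. At week 8 its log2 signal was 12.88, 13.37, 12.65 and 12.10. At week 12 it was 11.27, 11.13 and 10.28, and at week 16 it was 11.58, 10.25, 9.44 and 9.59. All arrays of week 12 and of week 16 lay below all arrays of week 8. At week 14 the arrays spread from 10.16 to 14.41, with the highest above and the lowest below the week 8 values. The difference to week 8 was -2.54 ± 0.81 at week 16 (5.80-fold lower, adjusted p = 0.00991 in limma, n = 4 arrays in each group), -1.86 ± 0.87 at week 12 (adjusted p = 0.0977) and -0.88 ± 0.81 at week 14 (adjusted p = 0.38). Without the arrays high in Amy1, the week 16 difference was -3.23 and was still called.

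The beta subunit gene Scgb2b27 spread more widely. Its log2 signal was 9.31, 9.77, 9.13 and 8.62 at week 8 and 9.48, 8.74, 4.54 and 4.27 at week 16. At week 16 it thus lay near its week 8 level in replicates 1 and 2 and close to the floor in replicates 3 and 4. The difference was -2.45 ± 1.24 and was not called (adjusted p = 0.0978 in limma, n = 4 in each group). Replicates 1 and 2 of week 16 are the ones high in Amy1. Without the arrays high in Amy1 the difference was -4.80 and was called, with an adjusted p of 0.00442, and without untreated week 16 replicate 1 alone it was -3.36 and was called. At week 12 and week 14 the differences to week 8 were -0.67 ± 1.34 and 0.46 ± 1.24.

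Of the 5 secretoglobin probe sets tested, none was called at week 12, 1 was called at week 14 and 1 at week 16, against week 8. Over all 20077 lacrimal probe sets tested, 9.67%, 13.6% and 16.5% were called. The call at week 14 was a rise of Scgb3a1.

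After 8 weeks of LTBR-Ig both salivary-type subunit genes were higher in the lacrimal gland than after MOPC-21. Scgb1b27 was at 14.51, 13.10, 13.23 and 11.32 with LTBR-Ig, at 10.03, 10.67, 8.10 and 10.11 with MOPC-21, and at 11.58, 10.25, 9.44 and 9.59 without treatment. The LTBR-Ig arrays lay above all MOPC-21 arrays, and replicate 4 of LTBR-Ig, the lowest, lay just below the highest untreated array. The mean was 13.04 ± 1.31 with LTBR-Ig and 9.73 ± 1.12 with MOPC-21 (SD, n = 4), a log2 difference of 3.31 ± 0.81 or 9.94-fold (adjusted p = 0.0104 in limma).

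Scgb2b27 was at 13.38, 11.01, 11.52 and 9.09 with LTBR-Ig and at 5.40, 8.39, 4.22 and 4.28 with MOPC-21. Again all LTBR-Ig arrays were above all MOPC-21 arrays, of which replicates 3 and 4 were close to the floor. The mean was 11.25 ± 1.76 with LTBR-Ig and 5.57 ± 1.96 with MOPC-21 (SD, n = 4), and the log2 difference was 5.68 ± 1.24, or 51.1-fold, with an adjusted p of 0.0075 in limma. A fold this near the floor depends on values close to background. These 2 were the only secretoglobin probe sets called of 5 tested, where 5.88% of all probe sets were called. Among those, 68 were higher and 1112 lower.

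These calls at week 16 depended on a single array and on the rule for a call. With a posterior probability of no change under 0.05 in place of the adjusted p, neither gene was called. Without MOPC-21 week 16 replicate 3, the array lowest in Scgb1b27, the differences were 2.77 for Scgb1b27 and 5.23 for Scgb2b27, and neither was called (adjusted p = 0.0762 and 0.0535 in limma). Without the arrays high in Amy1, which are LTBR-Ig replicates 3 and 4 in this comparison, the differences were larger, at 4.08 and 6.62, and Scgb2b27 alone was called, with 2 LTBR-Ig arrays left (adjusted p = 0.0755 for Scgb1b27 and 0.0376 for Scgb2b27).

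Against untreated mice the same direction was seen. Scgb1b27 was 2.83 ± 0.81 higher with LTBR-Ig (adjusted p = 0.0316 in limma) and Scgb2b27 4.49 ± 1.24 higher (adjusted p = 0.0295, n = 4 in each group). The groups overlapped in both, through untreated week 16 replicate 1. Both were called of 5 tested, where 3.95% of all probe sets were called. Either call or both were lost without LTBR-Ig replicate 1, 2 or 3 or untreated replicate 2, 3 or 4, with adjusted p from 0.0503 to 0.136 where lost. Both were also lost without the arrays high in Amy1, which are 2 in each group here, although the differences were then larger, at 4.29 for Scgb1b27 and 7.79 for Scgb2b27 (adjusted p = 0.154 and 0.0704). Between MOPC-21 and untreated mice Scgb1b27 differed by -0.49 ± 0.81 and Scgb2b27 by -1.18 ± 1.24, and 0% of all probe sets were called (411 at an unadjusted p under 0.05). Without the arrays high in Amy1 that difference of Scgb2b27 turned to 1.17.

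After 4 weeks of treatment the means of the same genes were higher with LTBR-Ig than with MOPC-21, without passing the test. Scgb1b27 was at 15.08, 12.51, 12.16 and 10.94 with LTBR-Ig at week 12 and between 10.38 and 10.57 in the 4 MOPC-21 arrays. Scgb2b27 was at 13.81, 10.36, 10.11 and 8.34 with LTBR-Ig and between 7.19 and 7.95 with MOPC-21. No arrays overlapped between LTBR-Ig and MOPC-21 in either gene, nor in Scgb1b2, whose log2 difference was only 0.065. How many of all probe sets separate in this way was not counted. LTBR-Ig replicate 1 stood highest in Scgb1b27 and Scgb2b27. The log2 differences were 2.20 ± 0.81 (95% interval 0.54 to 3.85, adjusted p = 0.396 in limma) and 2.97 ± 1.24 (0.42 to 5.52, adjusted p = 0.474). None of the 5 members was called, where 0.0498% of all probe sets were. Without the week 12 arrays high in Amy1 the differences were 1.10 and 1.63.

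Against untreated mice at week 12 (n = 3 arrays) the differences of LTBR-Ig were 1.78 ± 0.87 for Scgb1b27 and 2.12 ± 1.34 for Scgb2b27, with overlapping groups and no call (adjusted p = 0.752 and 0.844 in limma), where 0.00498% of all probe sets were called. They were 0.85 and 1.07 when arrays high in Amy1 were left out. MOPC-21 differed from untreated mice by -0.42 ± 0.87 and -0.86 ± 1.34, where 0% of all probe sets were called (1218 at an unadjusted p under 0.05). The change of the LTBR-Ig effect from week 12 to week 16 was tested directly. It was 1.12 ± 1.14 for Scgb1b27 and 2.70 ± 1.76 for Scgb2b27 (adjusted p = 0.604 and 0.416 in limma), or 2.97 and 4.99 without the arrays high in Amy1 (adjusted p = 1 for each), and 0% of all probe sets were called in that test (3126 at an unadjusted p under 0.05).

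**Figure D2:**
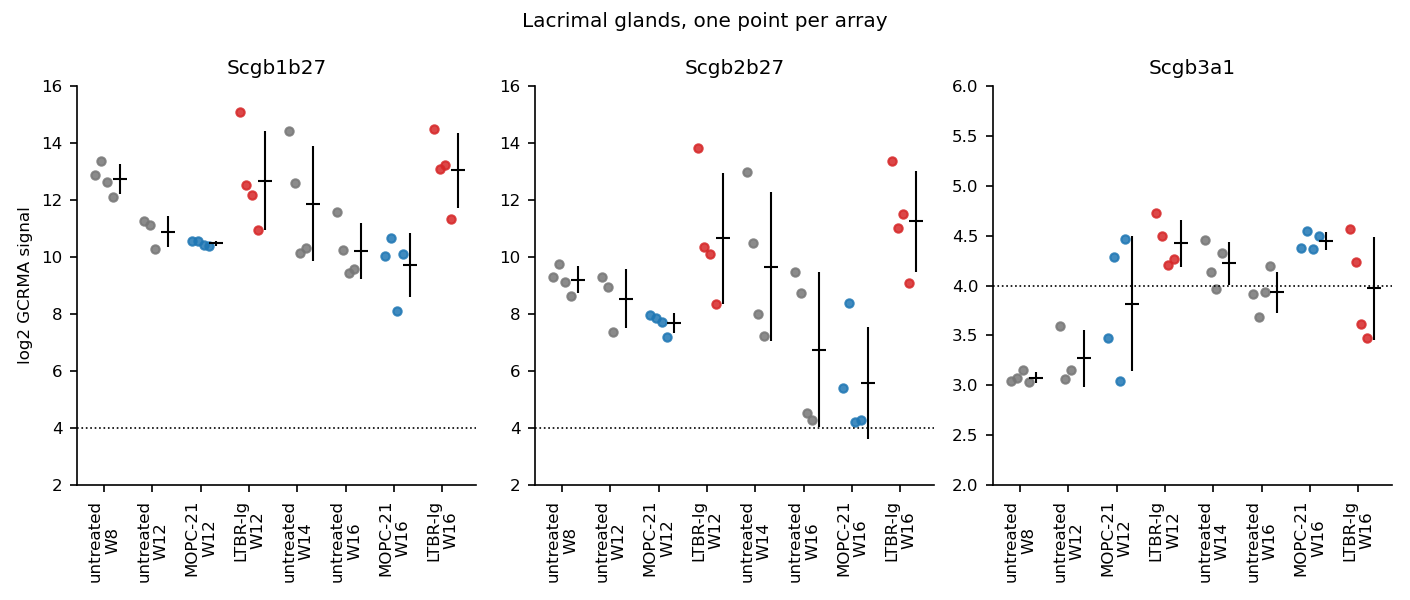
Log2 GCRMA signal of Scgb1b27, Scgb2b27 and Scgb3a1 in each lacrimal array, by treatment and week (W), with the group mean and SD as a black mark beside the points and the floor of 4 dotted. The vertical scale of Scgb3a1 is narrower. At week 16 all LTBR-Ig arrays (red) lay above all MOPC-21 arrays (blue) for Scgb1b27 and Scgb2b27, and Scgb3a1 stayed between 3.04 and 4.73 throughout.

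**Figure D3:**
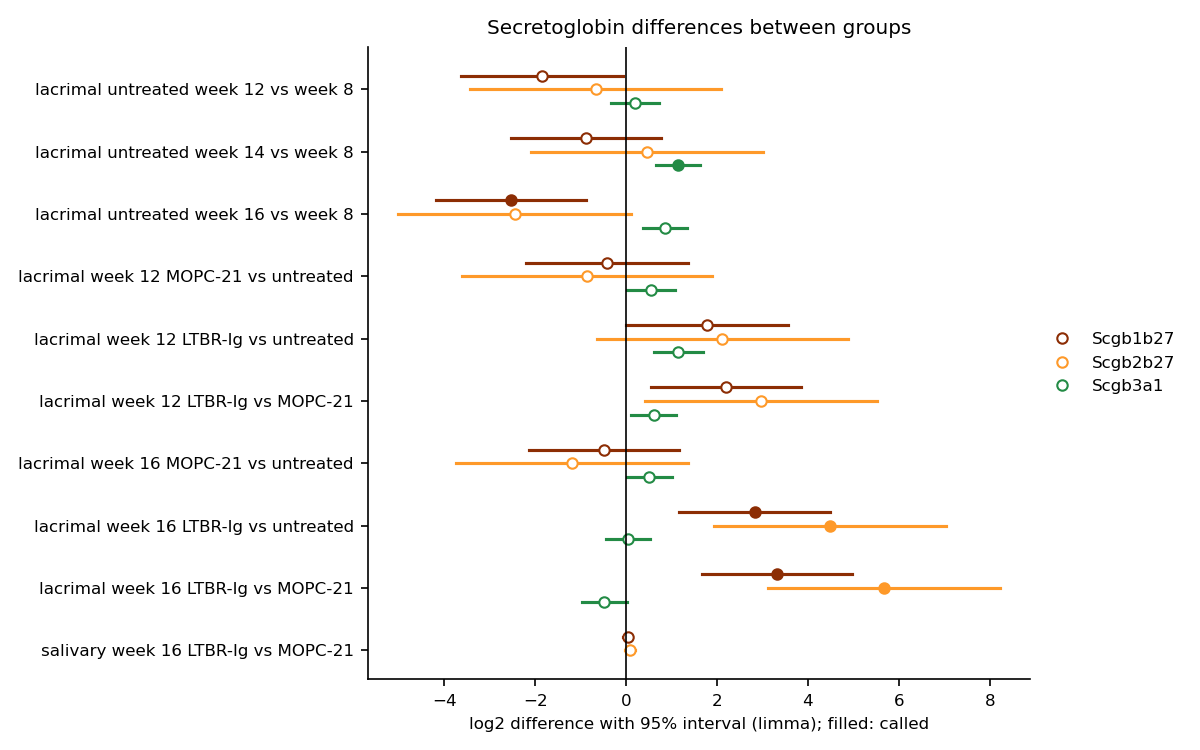
Log2 differences of Scgb1b27, Scgb2b27 and Scgb3a1 between groups, with the 95% interval of limma, first group minus second. Filled points were called at a fold of 2 and an adjusted p under 0.05. Calls were made for LTBR-Ig at week 16 in lacrimal glands (3.31 and 5.68 against MOPC-21, 2.83 and 4.49 against untreated mice), for the fall of Scgb1b27 from week 8 to week 16 (-2.54) and for the rise of Scgb3a1 at week 14 (1.15).

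In salivary glands no treatment difference of the same genes was called. At week 16 Scgb1b27 was at 15.67, 15.65, 15.69 and 15.66 with LTBR-Ig and at 15.72, 15.73, 15.65 and 15.43 with MOPC-21. The difference was 0.03 ± 0.05 (95% interval -0.07 to 0.14), and that of Scgb2b27 was 0.10 ± 0.05 (-0.02 to 0.21). Neither was called, where 0.0357% of all 19617 probe sets tested were called, as were 0.0663% for LTBR-Ig over untreated mice at week 16 and 0.0306% for LTBR-Ig over MOPC-21 at week 12. These intervals are narrow, but the values lie at the upper end of the scale. Set directly against each other at week 16, the LTBR-Ig effect in lacrimal glands was larger than that in salivary glands by 3.28 ± 0.84 for Scgb1b27 (adjusted p = 0.023 in limma) and by 5.58 ± 1.29 for Scgb2b27 (adjusted p = 0.0133, n = 4 arrays in each of the 4 groups). Both were called of 5 members tested, where 2.93% of all probe sets were. Since the salivary values lie at the upper end of the scale, a rise there could hardly have shown, and the difference between the effects carries that limit. It was 4.04 and 6.53 when arrays high in Amy1 were left out, and both were called. Without lacrimal MOPC-21 week 16 replicate 3 neither was called (adjusted p = 0.141 and 0.0809), and without lacrimal LTBR-Ig week 16 replicate 3 Scgb1b27 was not (adjusted p = 0.0666).

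The alpha and the beta subunit gene rose and fell together from array to array. Over the 31 lacrimal arrays, Scgb1b27 and Scgb2b27 correlated with a Pearson r of 0.92 and a Spearman rho of 0.94 (permutation p = 1e-05 for each, the smallest that 100000 permutations can give). Without the 2 arrays farthest from the median of Scgb1b27, r was 0.89, and with each group centred on its mean it was 0.89. This was 1 of 2 such pairs examined. The permutation ignores that arrays share groups. The probe sets share arrays and RNA, so that anything that alters the mix of cells in a sample moves both.

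Other secreted products of the submandibular and sublingual glands varied with them. Among 10139 genes with a single-symbol probe set, those most like Scgb1b27 over the lacrimal arrays were Mucl1 (Pearson r = 0.91), a mucin-like secreted protein, Egf (0.85), the growth factor made in submandibular ducts, Klk1b21 (0.83), a glandular kallikrein, A2ml1 (0.80), a protease inhibitor of the alpha-2-macroglobulin kind, and Smgc (0.79), a secreted submandibular protein. For Scgb2b27 they were Mucl1 (0.96), Egf (0.87), Klk1b21 (0.86), Klk1b5 (0.85) and Klk1b8 (0.85), the last 3 being kallikreins. In the 23 lacrimal arrays in which Amy1 lay at 8 or less, the r with Mucl1 was 0.91 for Scgb1b27 and 0.97 for Scgb2b27. These are descriptions over arrays that share groups.

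In the list of submandibular and sublingual gland products, 17 of 20 genes had a single-symbol probe set and were tested. In lacrimal glands at week 16, LTBR-Ig against MOPC-21, 16 of the 17 were called higher and none lower, with a median log2 difference of 4.33, beside -0.06 over all probe sets. Over all probe sets, 5.88% were called. The list genes were not refitted without the arrays high in Amy1. Mucl1 was 6.86 ± 1.39 higher, Crisp3, a cysteine-rich secretory protein, 6.47 ± 1.30 and Dcpp1, a demilune cell protein, 6.23 ± 1.77 (adjusted p = 0.00572, 0.00541 and 0.0178 in limma). Smr3a, a submaxillary gland androgen-regulated protein, was the member not called. Its values followed those of Amy1. In the LTBR-Ig group it reached 14.85 in replicate 3 and 12.04 in replicate 4, but 2.70 in replicate 1 and 2.53 in replicate 2, whereas Scgb1b27 and Scgb2b27 were highest in replicate 1. The summed level of the list, as the mean log2 value of its 17 genes, was 7.26 to 10.39 in LTBR-Ig arrays, 3.57 to 5.89 in MOPC-21 arrays and 3.91 to 7.90 in untreated arrays at week 16, against 12.94 to 14.65 in salivary arrays. Whether salivary tissue in the dissected lacrimal samples has a part in the rise of Scgb1b27 and Scgb2b27 was not tested.

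Week 8 stood apart from the later weeks in this relation. There, Scgb1b27 (12.10 to 13.37), Scgb2b27 (8.62 to 9.77) and Mucl1 (11.37 to 12.33) were well above the floor in all 4 lacrimal arrays. The list mean, however, was only 4.01 to 4.33, and 11 of its 17 genes, among them Klk1, Smr2, Dcpp1 and Smgc, lay below 4 on all 4 arrays. Crisp3 was at 4.97 in replicate 1 and at 3.50 or less in the other replicates, and Amy1 was at 3.74 or less. In LTBR-Ig arrays of week 16, where Scgb1b27 was at a like level, Crisp3 was between 9.58 and 13.45. From week 8 to week 16 in untreated lacrimal glands, Mucl1 fell with Scgb1b27 by -5.10 ± 1.39 (adjusted p = 0.00336 in limma) while Klk1 (5.39 ± 1.27), Klk1b11 (3.03 ± 0.61) and Prol1 (3.28, adjusted p = 0.00751), another secreted product of salivary glands, rose. Those were the 4 genes called of the 17 tested in the list, where 16.5% of all probe sets were called.

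**Figure D4:**
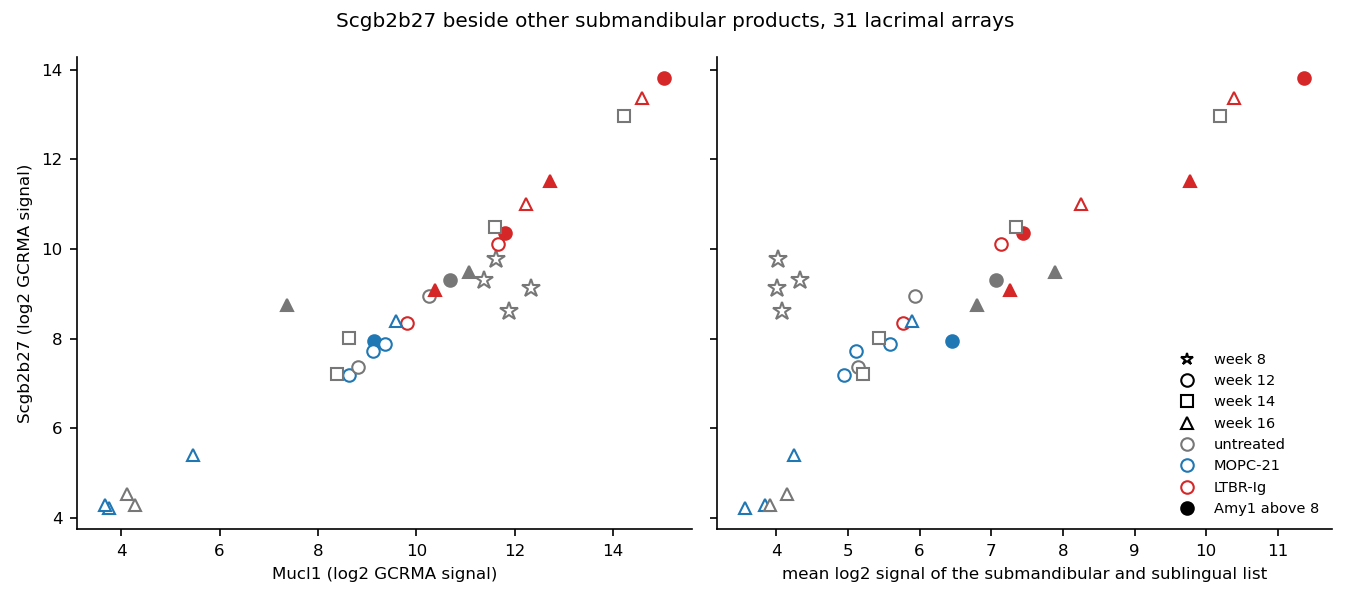
Scgb2b27 in each of the 31 lacrimal arrays against Mucl1 (left) and against the mean of 17 submandibular and sublingual gland products (right), all in log2 GCRMA signal. Colours give the treatment, shapes the week, and filled symbols the arrays with Amy1 above 8. The week 8 arrays (stars) follow the other arrays for Mucl1 but stand apart on the right, with a list mean of 4.01 to 4.33.

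Lymphocyte markers moved the opposite way in the treatment comparison at week 16. B cell genes (4 of 4 tested, median log2 difference -2.14) and T cell genes (4 of 4 tested, median -1.52) were lower with LTBR-Ig than with MOPC-21 at week 16. Over all probe sets 5.88% were called there, 1112 of them lower, and the median difference was -0.055. Both lists were higher at week 16 than at week 8 in untreated lacrimal glands (4 of 4 in each list, medians 5.84 and 3.58), where Scgb1b27 was lower. In that comparison 16.5% of all probe sets were called, with a median difference of -0.071. The part of cell composition in the secretoglobin values was not tested.

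The lacrimal-type pair was steady in the lacrimal gland. Scgb1b2 and Scgb2b7/Scgb2b20 ranked between the 2nd and 6th highest signal on all 31 lacrimal arrays. At week 16 the difference of LTBR-Ig from MOPC-21 was 0.04 ± 0.04 for Scgb1b2 (95% interval -0.04 to 0.11) and 0.03 ± 0.04 for Scgb2b7/Scgb2b20 (-0.04 to 0.11). The widest difference in any lacrimal comparison of treatments or weeks was a rise of Scgb1b2 by 0.16 ± 0.04 from week 8 to week 12 (adjusted p = 0.00204 in limma, 1.12-fold), with all 3 arrays of week 12 above all 4 of week 8, which is under the fold needed for a call. At the upper end of the scale such values can understate a change.

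In salivary glands of untreated mice the lacrimal-type pair was above the floor in all arrays of week 8 and week 14 and in none of week 12 and week 16. At week 8 Scgb1b2 was at 15.38, 9.45, 7.55 and 8.41 and at week 14 at 9.46, 7.28, 7.60 and 7.07. At week 16 the untreated arrays lay between 2.68 and 2.85 and at week 12 between 2.68 and 2.70, all below the floor. The order over the weeks was therefore not steady, since all arrays of week 14 lay above those of week 12 and week 16.

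Scgb2b7/Scgb2b20 had the same pattern, at 15.33, 9.84, 7.34 and 8.70 at week 8 and 8.83, 7.13, 6.90 and 5.85 at week 14. Its untreated arrays lay between 3.04 and 3.48 at week 12 and between 2.69 and 3.13 at week 16. From week 8 to week 16 Scgb1b2 fell by 7.47 on the log2 scale (SE 1.18, adjusted p = 1.71e-05 in limma) and Scgb2b7/Scgb2b20 fell by 7.44 (SE 1.07, adjusted p = 4.43e-06, n = 4 in each group). These 2 were called of 4 members tested, where 7.14% of all probe sets were called. The differences reach below the floor, so their size depends on background.

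Replicate 1 of week 8, which stood highest in the pair, is the salivary array that carried Lcn11. Without it Scgb1b2 differed by -5.74 and Scgb2b7/Scgb2b20 by -5.77 between week 16 and week 8, and both were still called. In the other 3 week 8 arrays Lcn11 was at 2.99 to 3.54, and at week 14 it was at 2.16 to 3.04, below the floor on all arrays in which the pair lay between 5.85 and 9.84. Mup5, the other gene measured of the lacrimal list, does not mark the lacrimal gland here, since it was higher in untreated salivary glands. From week 8 to week 16 in salivary glands it fell with the pair, by 3.67 on the log2 scale (adjusted p = 3.19e-06 in limma). It was at 13.73, 14.08, 14.39 and 14.40 at week 8, lowest in the array that carried Lcn11, and at 10.14 to 10.39 at week 14, where the pair was above the floor, against 10.17 to 10.80 at week 16, where it was not. The part of lacrimal tissue in the signal of the pair was not tested.

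In treated mice the pair was above the floor in single salivary arrays only. Scgb1b2 was at 6.05 and 2.97 with LTBR-Ig at week 12, at 3.83, 3.34, 6.85 and 2.77 with MOPC-21 at week 12, at 2.71, 7.46, 3.06 and 2.73 with LTBR-Ig at week 16 and at 3.91 or less in the MOPC-21 arrays of week 16. Scgb2b7/Scgb2b20 was above the floor in the same 3 arrays, at 5.63, 5.90 and 6.85. LTBR-Ig differed from MOPC-21 at week 16 by 0.81 ± 1.18 and 1.20 ± 1.07, with no call. In all, 11 of 30 salivary arrays carried the pair above the floor, and within those 11 the probe sets correlated with a Pearson r of 0.99 and a Spearman rho of 0.94 (permutation p = 1e-05, the smallest possible, and 0.00011). Without the 2 arrays farthest from the median r was 0.93. The 11 arrays were chosen by the value of Scgb1b2 itself, and the permutation ignores that arrays share groups.

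**Figure D5:**
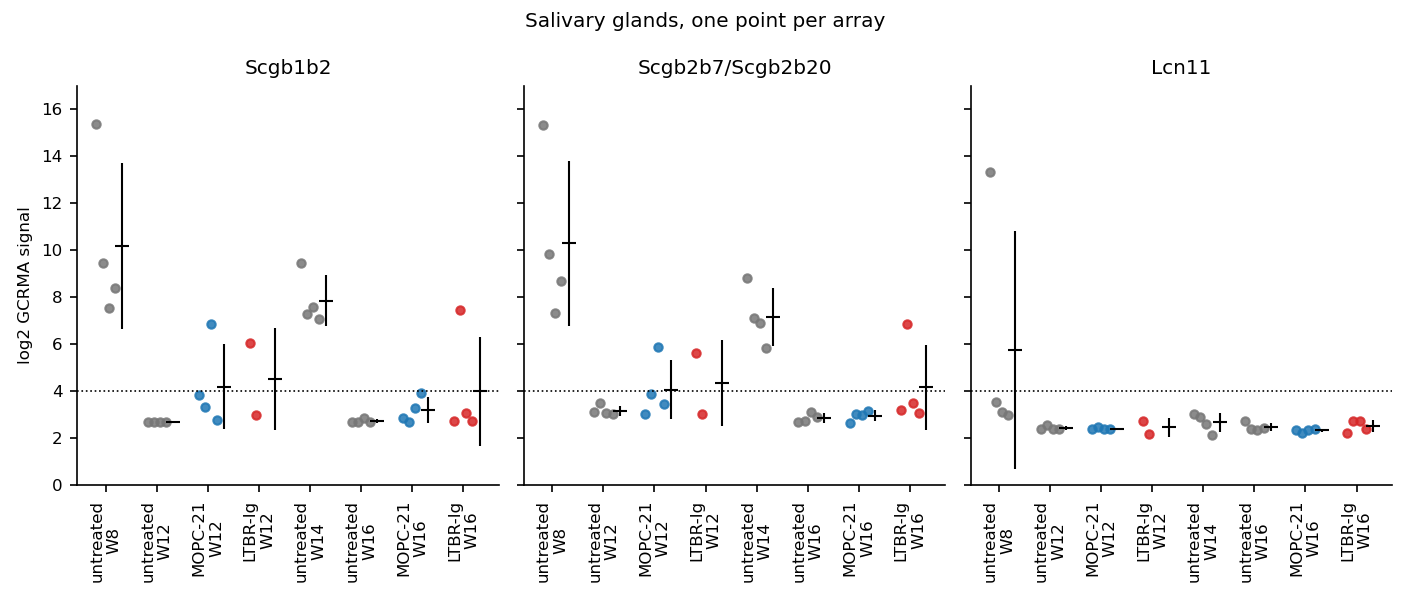
Log2 GCRMA signal of Scgb1b2, Scgb2b7/Scgb2b20 and the lacrimal lipocalin Lcn11 in each salivary array, by treatment and week (W), with the group mean and SD as a black mark and the floor of 4 dotted. The pair was above the floor in all arrays of week 8 and week 14 and in 3 arrays of treated mice, and Lcn11 was above it in 1 array (13.34), where the pair was also highest.

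Scgb3a1, a secretoglobin of airway and other epithelia, lay near the floor. In salivary glands it was between 2.72 and 3.04 on all 30 arrays. In lacrimal glands it was at 3.04, 3.08, 3.15 and 3.04 in untreated mice at week 8, at 4.46, 4.14, 3.96 and 4.33 at week 14 and at 3.92, 3.69, 3.94 and 4.19 at week 16. All arrays of week 14 and week 16 lay above all arrays of week 8. The rise was 1.15 ± 0.24 at week 14 (2.21-fold, adjusted p = 0.000359 in limma, n = 4 in each group) and 0.86 ± 0.24 at week 16 (1.81-fold, adjusted p = 0.00387), of which the second is under the fold needed for a call. At week 12 it was at 4.73, 4.50, 4.20 and 4.27 with LTBR-Ig and at 3.59, 3.07 and 3.15 without treatment, without overlap, a difference of 1.15 ± 0.26 that was not called (adjusted p = 0.14). The LTBR-Ig effect against MOPC-21 was lower at week 16 than at week 12 by -1.08 ± 0.34 (adjusted p = 0.303 in limma). Without the arrays high in Amy1 this was -0.35. Values within 1 log2 unit of the floor are measured with low precision on these arrays.

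Both airway secretoglobins lay below the floor. Scgb1a1, the club cell secretory protein, was between 2.57 and 3.13 over all 61 arrays, and Scgb3a2 between 2.54 and 3.17, so neither passed the floor on any array and neither was tested. Of the club cell markers in the list, Sftpb was at 2.35 or less on every array, whereas Cyp2f2, a cytochrome P450, was between 8.44 and 10.96. A signal below the floor does not show that a transcript is absent.

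The counts of androgen action genes called were near the background. Of 6 tested genes of androgen action, none was called for LTBR-Ig over MOPC-21 in week 16 lacrimal glands (median log2 difference 0.13, background 5.88%), and in untreated lacrimal glands 1 was lower at week 16 than at week 8, Fkbp5, an androgen- and glucocorticoid-responsive chaperone partner (-1.12 ± 0.22, adjusted p = 0.00016 in limma), where the background was 16.5%. The androgen receptor gene and both steroid reductase genes of the list had no single-symbol probe set and were not analysed here. Of 13 tested androgen-regulated salivary products outside the family, 12 were called higher with LTBR-Ig at week 16 (median 4.76), and these overlap with the submandibular and sublingual list. Of 5 proteins reported to bind secretoglobins, Lmbr1l and Fpr2 were tested, with differences of -0.47 ± 0.24 and -0.22 ± 0.56 and no call. Parotid products gave no call among 3 tested, with a median of 4.85 that rested on the LTBR-Ig arrays high in Amy1. Of the lacrimal list, Lcn11 (0.28 ± 0.08) and Mup5 (1.65 ± 0.87), which did not mark the gland, were not called.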

How the data were processed

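Glands were profiled on Affymetrix mouse genome arrays, 1 array per sample, from RNA labelled with the NuGEN Ovation kit. The values are the log2 signals that the authors deposited after GCRMA (version not given in the sources used here) over all 61 arrays. GCRMA makes the spread of signals alike across arrays. Signals at the upper end of the scale leave little room to show a rise. Of 45101 probe sets, 34958 carry 1 gene symbol, 932 several and 9211 none in the annotation used.

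Each gland was fitted with limma 3.58.1 in R 4.3.3, with 1 mean per group and a variance trend, and both together for contrasts between glands. In total 20077 lacrimal, 19617 salivary and 21626 probe sets in both were tested, with p-values adjusted over all of them. For list genes with several such probe sets, the one of highest mean was used. Named genes are every member, the 5 genes most like Scgb1b27 and Scgb2b27, and counted list members. The members and lists were chosen with earlier results of these data known. The fit was tested on simulated data. Sequences come from RefSeq and were aligned with Biopython 1.88 (match 2, mismatch -3, gap -5 and -2). No batch is given in the labels. The number of arrays limits the precision.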

Additional observations from a re-analysis of the deposited data

Results flagged for a closer look

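The effect of LTBR-Ig against MOPC-21 at week 16 differed between the glands for both salivary-type subunit genes, by a log2 difference of 3.28 for Scgb1b27 and 5.58 for Scgb2b27 (limma, adjusted p = 0.023 and 0.0133), as the values by array above show. The salivary values of both genes lie at the upper end of the scale, where a rise could hardly have shown.

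Of 63 groups of 4 arrays examined for the tested members, 6 held an array far from the other 3 by Dixon's ratio at its 95% level, which chance alone would give in about 1 in 20 groups. In salivary glands, LTBR-Ig week 16 replicate 2 stood at 7.46 for Scgb1b2 (others 2.71 to 3.06) and at 6.85 for Scgb2b7/Scgb2b20 (others 3.07 to 3.51). Untreated week 16 replicate 3 stood at 2.85 for Scgb1b2 (others 2.68 to 2.70), and untreated week 12 replicate 2 at 3.48 for Scgb2b7/Scgb2b20 (others 3.04 to 3.09), both below the floor of detection. In lacrimal glands, MOPC-21 week 16 replicate 3 was low for Scgb1b2 at 15.87 (others 15.96 to 15.98), and MOPC-21 week 12 replicate 1 was low for Scgb2b7/Scgb2b20 at 15.99 (others 16.02 to 16.03). MOPC-21 week 16 replicate 3 is also the array without which the week 16 calls of Scgb1b27 and Scgb2b27 were lost.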

How the results depend on the processing

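Counts of secretoglobin probe sets called were recomputed under 332 combinations of comparison and setting, and 311 stayed within 1.5 times the value reported. The 21 others were these. With a posterior probability of no change under 0.05 as the call rule, 0 were called for LTBR-Ig against MOPC-21 and against untreated mice at week 16, for untreated week 14 and week 16 against week 8, and for the difference of the LTBR-Ig effect between glands. With only the groups compared in the fit, 1 (Scgb1b27) was called at week 12 against week 8. Among probe sets above 6, 0 were called at week 14, since Scgb3a1 was then not tested. Without the lacrimal arrays high in Amy1, chosen after seeing the data, LTBR-Ig at week 16 gave 1 call over MOPC-21 and 0 over untreated mice, and there were 2 for week 16 against week 8. Leaving out each array in turn gave 0 to 2 for LTBR-Ig against MOPC-21, 0 to 2 against untreated mice, 1 to 2 for week 16 against week 8 and 0 to 2 for the difference between glands. Of 683 recomputed log2 differences, 1 changed sign, that of Scgb2b27 between MOPC-21 and untreated mice at week 16 (1.17 without the lacrimal arrays high in Amy1).

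With the replicate number of the titles as a replicate block, 2 were called for week 16 against week 8 in untreated lacrimal glands (Scgb2b27, -2.45, adjusted p = 0.0164 in limma), and no other count moved. Over all probe sets, the deviations of same-numbered arrays of different groups correlated with a median r of 0.02 over 105 lacrimal pairs (-0.58 to 0.75, 39 of them over 0.1) and 0.01 over 98 salivary pairs, so the numbers were not taken as pairs. The genes reported here can still go with the number. Scgb1b27 and Scgb2b27 were each highest in the lowest-numbered array in 6 of 8 lacrimal groups. The mean of the submandibular and sublingual list fell with the number in every lacrimal group of week 12 and in untreated mice thereafter. With LTBR-Ig at week 12 it was 11.37, 7.45, 7.14 and 5.76. It did not fall steadily at week 8 or in treated mice at week 16. The mean of the parotid list fell with the number in every lacrimal group of week 12 and in no other. The cause was not tested.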

Other observations

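The genes most like the lacrimal-type pair over the 30 salivary arrays were also listed, a choice made after the values were seen. For Scgb1b2 and Scgb2b7/Scgb2b20 alike they were Obp1a, an odorant-binding lipocalin, with a Pearson r of 0.79 and 0.85, and Hirip3, Cenpa, Rasl10a and Anln, with r from 0.77 to 0.84. Cenpa, a centromere histone, and Anln, which acts in cell division, belong to dividing cells. With each group centred on its mean, r with Obp1a was 0.74 and 0.79, with Anln 0.67 and 0.76 and with Cenpa 0.61 and 0.70. It was lower with Hirip3 (0.47 and 0.54) and Rasl10a (0.38 and 0.46). The likeness to Hirip3 and Rasl10a thus lay more between groups than that to the other genes. The arrays fall into those with and without the pair above the floor, and these values describe that division.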
